A study of Mus musculus with 18 samples.

Results

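The anterior *Hox* genes of paralog groups 3 to 5 were followed in fibroblasts of 3 mouse organs, heart, kidney and tail. Members were taken by gene name (*Hoxa3*, *Hoxb3*, *Hoxd3*, *Hoxa4*, *Hoxb4*, *Hoxc4*, *Hoxd4*, *Hoxa5*, *Hoxb5* and *Hoxc5*) and matched to Ensembl identifiers in the count table. Of these 10 genes, 9 had a row among the 38924 genes of the table, and all 9 were among the 16577 genes with enough counts to be tested. *Hoxd4* matched no row and was not analysed here. Donors were male mice of the Rosa mT/mG strain (C57BL/6 background, 10 weeks of age), whose cells carry a membrane TdTomato reporter, and all cells were grown for 10 days first. Cells transplanted for 3 days on gelatin foam beneath the kidney capsule of syngeneic C57bl6/j recipients aged 10 to 11 weeks, and then sorted as CD45-;TdTomato+, gave the HFs, KFs and TFs groups for heart, kidney and tail. Remaining cells of the same kind, replated in culture, gave the HFc, KFc and TFc controls, so every group carried the reporter and the earlier culture. Each group had 3 libraries of bulk RNA, described as biological replicates. Whether they came from separate animals is not stated, so p-values measure only the spread between these libraries.

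*Hox* genes encode homeodomain transcription factors that assign position along the body axis, and they lie in 4 clusters (a to d) whose gene order follows the anterior to posterior order of their expression in the embryo. Genes with the same number in different clusters are paralogs. Groups 3 to 5 act in the hindbrain, neck and upper trunk, and adult fibroblasts are known to keep part of the *Hox* pattern of their place of origin.

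Library totals lay between 17927838 and 32245168 counts, and levels are given as CPM, counts scaled to the TMM-adjusted library size, with factors from 0.903 to 1.15. A gene was called detectable in a library above 3 counts, a floor that covers counting error only. The labelled organs were checked against marker lists. The heart transcription factor *Tbx20* lay between 373 and 1223 CPM in the heart libraries and at most 0.526 CPM elsewhere. The tail gene *Hoxb13* lay between 30.4 and 68.1 CPM in the tail libraries and at most 0.0729 CPM elsewhere. Of the 4 listed tail genes, *Tbx15* was also highest in tail, at 21.6 to 41.3 CPM against at most 17.9 CPM elsewhere. *Hoxc13* did not set tail apart, with a mean of 11.99 CPM in KFc against 8.64 CPM in TFs and 40.4 CPM in TFc. Nor did *Prrx1*, at 455 and 374 CPM in KFs replicates 1 and 2 against 347 to 362 CPM in TFc. The 4 kidney genes *Pax2*, *Pax8*, *Foxd1* and *Osr1* summed to between 40.4 and 43.8 CPM in KFc. In replicates 1 and 2 of KFs they summed to 24.5 and 16.7 CPM, inside the range of TFs (22.5 to 30.8 CPM) or below it. *Osr1* made most of these KFs and TFs sums, at 16.1 and 11.0 CPM against 20.7 to 28.5 CPM in TFs. *Pax8* (6.27 and 3.56 CPM) and *Pax2* (1.29 and 1.67 CPM) lay above TFs, where they reached at most 1.77 and 0.963 CPM. *Foxd1*, at 0.768 and 0.481 CPM, lay on either side of the TFs range of 0.636 to 0.682 CPM.

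The library labelled KFs replicate 3 stood apart. It had 1492 CPM of *Xist*, which is made from the inactive X chromosome, against at most 0.404 CPM in the other 17 libraries, and 0.722 CPM of 4 Y-linked genes against 175 to 230 CPM, although the donors are described as male. Its 9 fibroblast markers summed to 19722 CPM, against 94971 and 71804 CPM in replicates 1 and 2 of KFs. Genes of kidney epithelium were high in it, with *Pax2* at 46.5 CPM against 1.29 and 1.67, *Pax8* at 109 CPM against 6.27 and 3.56 and the podocyte gene *Podxl* at 18.9 CPM against 3.84 and 2.18. Kidney values are therefore given with and without this library.

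The homeobox, the stretch of the last coding exon that encodes the DNA-binding homeodomain, shows how far reads of the paralogs can be told apart. The homeoboxes of *Hoxa4* and *Hoxc4* are printed because these paralogs were both at 3 counts or fewer over the cultured heart group, and each was read from GENCODE M21 transcripts (GRCm38) 5′ to 3′ on the coding strand. Capitals mark bases of *Hoxc4* that differ from *Hoxa4*.
Hoxa4: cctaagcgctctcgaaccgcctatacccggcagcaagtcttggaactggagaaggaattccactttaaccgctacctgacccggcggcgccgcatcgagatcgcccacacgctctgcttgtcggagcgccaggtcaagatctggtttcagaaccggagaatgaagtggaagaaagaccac
Hoxc4: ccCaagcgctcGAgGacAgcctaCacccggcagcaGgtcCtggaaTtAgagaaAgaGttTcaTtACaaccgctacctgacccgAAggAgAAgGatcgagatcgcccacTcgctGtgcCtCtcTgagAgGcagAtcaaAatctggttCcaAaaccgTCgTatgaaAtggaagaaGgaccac

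*Hoxa4* (ENSMUSG00000000942, minus strand) holds this stretch in exon 2 of 2, at chr6:52190483-52190662, and *Hoxc4* (ENSMUSG00000075394, plus strand) in exon 4 of 4, at chr15:103035663-103035842. They differed at 38 of the 180 bases. The other members of groups 4 and 5 carry the identifiers ENSMUSG00000038692 (*Hoxb4*), ENSMUSG00000038253 (*Hoxa5*), ENSMUSG00000038700 (*Hoxb5*) and ENSMUSG00000022485 (*Hoxc5*). Over the 12 pairs of the same paralog group, *Hoxd4* included, identity ran from 75.0 to 93.9% with a median of 82.5%, and the longest identical run was 47 bases, shorter than the 75-base reads. Over the 8 pairs within a cluster, identity ran from 67.2 to 81.7%.

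Across whole transcripts, no 75-base window of *Hoxb3*, *Hoxa4*, *Hoxb4*, *Hoxc4*, *Hoxa5* or *Hoxb5* occurred in another annotated gene. *Hoxd3* (ENSMUSG00000079277) was the exception: 59.0% of its windows also occurred in the overlapping gene models *Gm28230* and *Hoxd4*, neither of which matched a row of the table, so its counts are uncertain and may hold reads of *Hoxd4*. The shares were 6.87% for *Hoxa3* (ENSMUSG00000079560, with *Gm28308*) and 3.12% for *Hoxc5* (with *Hoxc10*). The antisense gene *Hoxb3os* covers 52.9% of the exon bases of *Hoxb3* (ENSMUSG00000048763) on the opposite strand, and the authors' counting used strand.

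**Figure D1:**
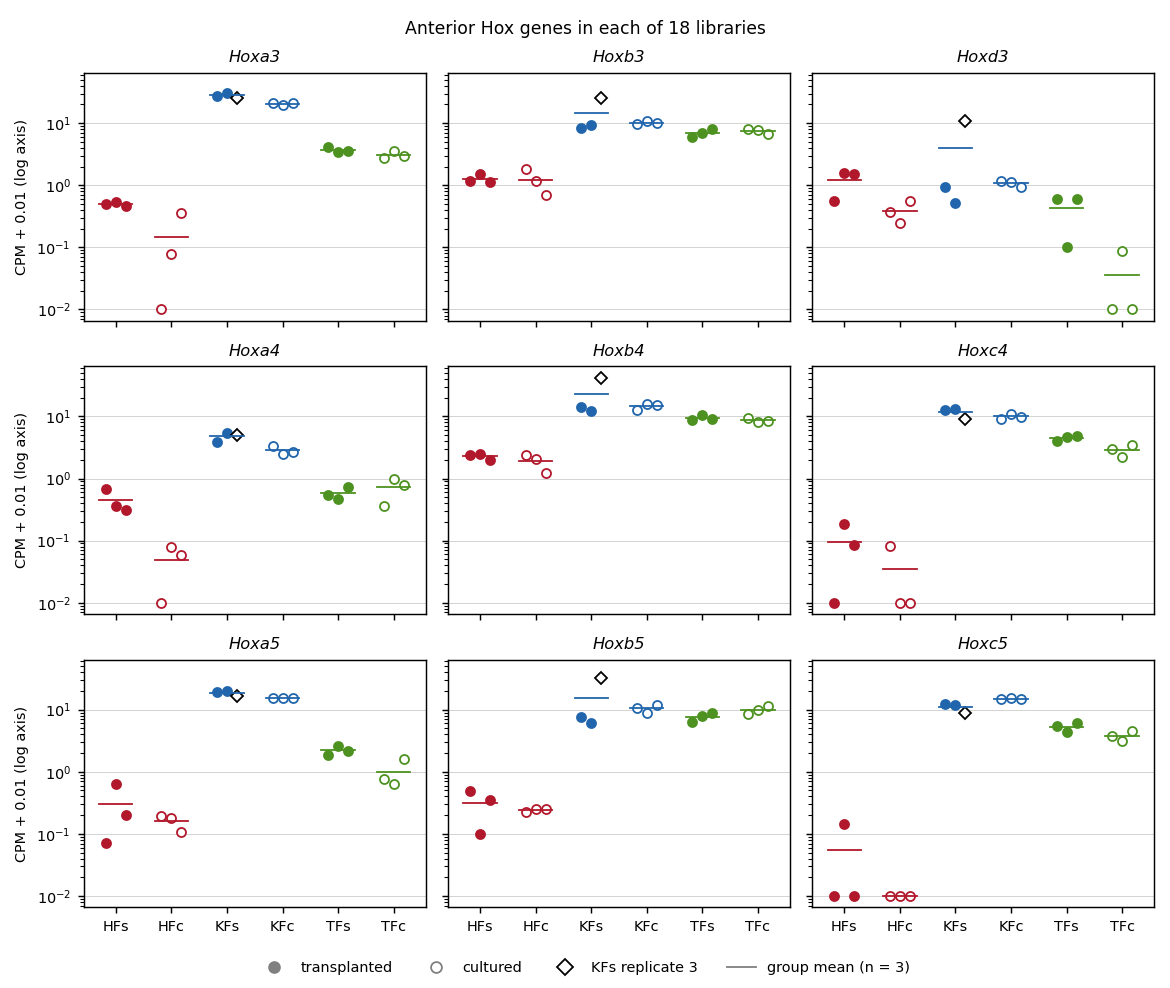
Level of each gene in each of the 18 libraries, as CPM with 0.01 added on a log axis, with filled points for transplanted cells, open points for cultured cells, an open diamond for KFs replicate 3 and a line at each group mean. Kidney libraries sat highest in the a and c clusters, the heart group means were lowest for all genes but *Hoxd3*, and KFs replicate 3 stood above the other kidney libraries for *Hoxb3*, *Hoxd3*, *Hoxb4* and *Hoxb5*.

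The a-cluster members were high in kidney fibroblasts, low in tail fibroblasts and near the floor in heart fibroblasts. *Hoxa3*, which patterns the pharyngeal arches and the thymus, was at 20.7, 19.8 and 20.8 CPM in KFc and at 27.4, 31.0 and 25.6 CPM in KFs. Its tail levels were 2.73, 3.53 and 2.98 CPM in TFc and 4.07, 3.41 and 3.52 CPM in TFs. The 3 organs did not overlap, since its heart levels were 0, 0.0677 and 0.344 CPM in HFc and 0.481, 0.529 and 0.456 CPM in HFs.

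*Hoxa4*, which takes part in forming the neck vertebrae, followed the same order at a lower level. It was at 3.36, 2.48 and 2.69 CPM in KFc and at 3.84, 5.45 and 5.09 CPM in KFs. The tail values were 0.356, 0.981 and 0.789 CPM in TFc and 0.535, 0.454 and 0.721 CPM in TFs. In heart it was undetectable in all 3 cultured libraries, with 0, 2 and 1 counts, and detectable in all 3 transplanted libraries, with 11, 8 and 8 counts (0.661, 0.353 and 0.304 CPM). The HFs and TFs ranges overlapped, and the HFc range lay below both.

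*Hoxa5*, which is needed for lung and airway development, had the widest gap between kidney and tail of the genes whose tail counts were above the floor. It was at 15.7, 15.1 and 15.6 CPM in KFc and 19.1, 19.6 and 16.8 CPM in KFs. Tail levels were 0.742, 0.628 and 1.62 CPM in TFc and 1.82, 2.64 and 2.16 CPM in TFs. Heart levels were 0.182, 0.169 and 0.0983 CPM in HFc and 0.0601, 0.617 and 0.190 CPM in HFs, which overlapped. Transplanted and cultured tail cells did not overlap, nor did transplanted and cultured kidney cells.

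The b-cluster members were closer between kidney and tail. *Hoxb4*, known for expanding blood stem cells when raised, was at 12.5, 15.7 and 15.5 CPM in KFc against 9.29, 8.20 and 8.37 CPM in TFc. After transplantation it was at 14.3 and 12.1 CPM in KFs replicates 1 and 2, at 41.9 CPM in KFs replicate 3, and at 8.78, 10.5 and 9.20 CPM in TFs. It was the anterior *Hox* gene with the highest heart level per length, at 2.40, 2.06 and 1.23 CPM in HFc and 2.40, 2.47 and 1.97 CPM in HFs. Kidney and tail ranges came close without overlapping, and heart lay below both.

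*Hoxb3*, a gene of the hindbrain and pharyngeal region, was at 9.55, 10.7 and 10.1 CPM in KFc and at 8.45 and 9.29 CPM in KFs replicates 1 and 2, with 25.7 CPM in KFs replicate 3. Its tail levels were 8.19, 7.77 and 6.71 CPM in TFc and 5.99, 6.86 and 8.14 CPM in TFs, and its heart levels 1.79, 1.15 and 0.688 CPM in HFc and 1.14, 1.50 and 1.14 CPM in HFs. *Hoxb5*, which acts in neural crest and blood vessels, showed no kidney excess in culture, with 10.4, 8.90 and 11.996 CPM in KFc and 8.52, 9.93 and 11.3 CPM in TFc, which overlapped. In KFs it was at 7.72 and 6.15 CPM in replicates 1 and 2 and at 32.3 CPM in replicate 3, against 6.21, 7.77 and 8.74 CPM in TFs. Its heart levels stayed at 0.246 CPM or below in HFc and 0.481 CPM or below in HFs.

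The c-cluster members were the nearest to absent in heart fibroblasts. *Hoxc5* had 0 counts in all 3 HFc libraries and in 2 of 3 HFs libraries, with 3 counts in the other, so it was not detectable in heart at this depth. It was at 14.6, 15.5 and 14.8 CPM in KFc, at 12.5, 12.1 and 8.94 CPM in KFs, at 3.74, 3.10 and 4.60 CPM in TFc and at 5.51, 4.36 and 6.02 CPM in TFs. Its KFc libraries all lay above its KFs libraries, and without KFs replicate 3 this also held for *Hoxb3*, *Hoxb5* and *Hoxd3*. The reverse, all KFs libraries above all KFc libraries, held for *Hoxa3*, *Hoxa4* and *Hoxa5* with or without that library, and for *Hoxc4* without it. The share of all genes without overlap was not computed, so these cases are description only. For *Hoxd3* the gap was marginal, with KFs replicate 1 at 0.92979 and KFc replicate 3 at 0.93045 CPM. With DESeq2 size factors these *Hoxd3* values were 0.942 and 0.938 CPM, and the ranges overlapped. *Hoxc4*, the neighbour of *Hoxc5* in the cluster, was above 3 counts in 1 of the 6 heart libraries (HFs replicate 2, with 4 counts). It was at 9.17, 10.8 and 9.94 CPM in KFc, at 12.9, 12.9 and 9.14 CPM in KFs, at 3.00, 2.24 and 3.51 CPM in TFc and at 3.96, 4.68 and 4.79 CPM in TFs.

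*Hoxd3*, which patterns the upper neck vertebrae together with *Hoxa3*, did not follow this order. It was lowest in TFc, with 0, 2 and 0 counts, and was at 0.589, 0.0909 and 0.594 CPM in TFs. Heart cells had 0.364, 0.237 and 0.541 CPM in HFc and 0.541, 1.54 and 1.48 CPM in HFs, and KFc had 1.16, 1.12 and 0.930 CPM. In KFs it was at 0.930 and 0.513 CPM in replicates 1 and 2 and at 10.7 CPM in replicate 3, so the group mean of 4.04 CPM became 0.721 CPM without that library. Transplanted heart cells therefore reached or passed the cultured kidney level in 2 of 3 libraries, which no other member did.

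Per kilobase of merged exon, which allows genes to be compared with each other, *Hoxa5* was the highest member in KFc at 8.23 ± 0.144 CPM per kb (SD, n = 3) and in KFs at 9.86 ± 0.802 CPM per kb, or 10.3 CPM per kb without replicate 3. *Hoxb5* and *Hoxb4* led in TFc, at 3.56 ± 0.494 and 3.36 ± 0.228 CPM per kb, and these did not differ beyond their spread. *Hoxb4* led in both heart groups, at 0.740 ± 0.236 CPM per kb in HFc and 0.889 ± 0.105 in HFs, followed by *Hoxb3* at 0.284 ± 0.130 and 0.296 ± 0.0486. Summed over its 3 members, the b cluster gave 3.34 ± 1.13 CPM in HFc, against 0.326 ± 0.156 CPM for the a cluster and 0.0243 ± 0.0421 CPM for *Hoxc4* and *Hoxc5*. In KFc the a and b sums were alike in size, 38.7 ± 1.19 and 35.1 ± 2.58 CPM, while in TFc the a sum was 4.79 ± 0.840 CPM and the b sum 26.1 ± 0.239 CPM.

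**Figure D2:**
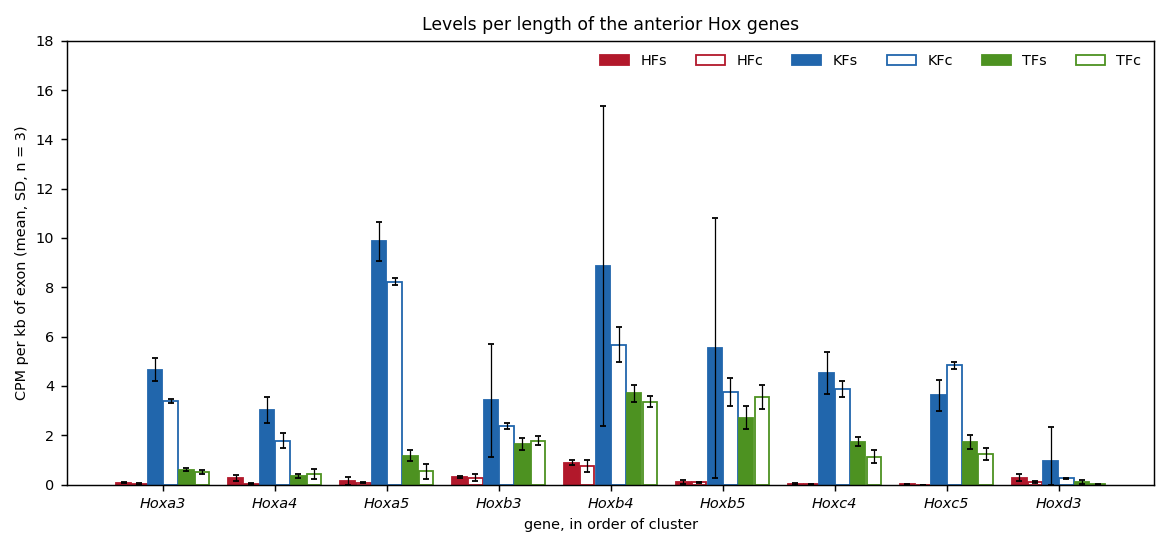
Mean level per kilobase of exon in CPM for each gene, ordered by cluster, with filled bars for transplanted groups, open bars for cultured groups and error bars of 1 SD (n = 3), drawn no lower than 0. *Hoxa5* reached 9.86 CPM per kb in KFs and 8.23 in KFc, the b-cluster genes had tail bars nearer to their kidney bars, and the wide KFs error bars of *Hoxb3*, *Hoxb4*, *Hoxb5* and *Hoxd3* come with replicate 3.

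The next comparison asks whether the anterior *Hox* genes differ between cultured fibroblasts of the 3 organs. In HFc against KFc, 8 of 9 members were lower in heart at an adjusted p under 0.05 (edgeR quasi-likelihood test, Benjamini-Hochberg adjustment over all genes), where 14% of all genes tested were lower. The median member difference was -6.02 on the log2 scale, against 0.03 over all genes, and was the same with *Hoxc5* set at its bound. The log2 difference was -7.36 ± 0.421 (SE, adjusted p = 6.6e-09) for *Hoxa3* and -6.60 ± 0.482 (adjusted p = 8.5e-08) for *Hoxa5*. *Hoxc5* was at least 385-fold lower, computed against 3 counts over the HFc group. *Hoxc4*, with 2 counts in HFc, had a ratio of 386 in favour of kidney (95% counting interval 107 to 3192). *Hoxd3* differed by -1.4998 ± 0.969 with an adjusted p of 0.28, although its ranges did not overlap.

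Against cultured tail cells, HFc was also lower for 8 of 9 members, where 21% of all genes were lower. The median difference was -4.01. *Hoxb5* differed by -5.38 ± 0.635 (adjusted p = 6.0e-06), *Hoxa3* by -4.64 ± 0.434 (adjusted p = 5.2e-07) and *Hoxb4*, with the smallest difference of the 8, by -2.16 ± 0.381 (adjusted p = 0.00029). *Hoxc5* was at least 97.5-fold lower. *Hoxd3* went the other way, with 28 counts in HFc and 2 in TFc, a ratio of 14.8 (95% counting interval 3.74 to 129), and its adjusted p of 0.0501 was just above the limit. Without KFs replicate 3, which shares the estimate of the spread, the same *Hoxd3* difference had an adjusted p of 0.0054.

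Kidney against tail differed by cluster in size. In KFc against TFc, 6 of 9 members were higher in kidney, where 17.8% of all genes were higher. All 3 a-cluster members were among the 6, with *Hoxa5* at 3.97 ± 0.389 (adjusted p = 1.5e-06), *Hoxa3* at 2.73 ± 0.291 (adjusted p = 3.6e-06) and *Hoxa4* at 2.01 ± 0.428 (adjusted p = 0.0018). *Hoxc5* and *Hoxc4* rose by 1.97 ± 0.298 and 1.77 ± 0.326, with adjusted p of 0.00019 and 0.00058. *Hoxd3* was higher with a ratio of 43.6 (95% counting interval 11.7 to 365, adjusted p = 0.0072). The 3 b-cluster members were the ones that did not pass, with *Hoxb5* at 0.08 (95% interval -0.90 to 1.05), *Hoxb3* at 0.42 (-0.32 to 1.16) and *Hoxb4* at 0.75 (0.01 to 1.50). Without KFs replicate 3 the *Hoxb4* difference was 0.78 with an adjusted p of 0.0016, and the *Hoxb3* and *Hoxb5* differences did not pass. In a fit of KFc and TFc alone *Hoxb4* (0.79, adjusted p = 2.3e-05) and *Hoxb3* (0.45, adjusted p = 0.0075) both passed, so the split between the clusters depended on the libraries in the fit.

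The same organ order was present among transplanted cells. In HFs against KFs, 8 of 9 members were lower in heart, where 19% of all genes were lower, and the exception was again *Hoxd3* at -1.74 ± 0.904 (adjusted p = 0.15). Without KFs replicate 3 the 8 members stayed lower, where 20.7% of all genes were lower, and *Hoxd3* turned to 0.75 (adjusted p = 0.44). In HFs against TFs, 7 of 9 members were lower in heart, where 12.7% of all genes were lower, with *Hoxc4* at -5.55 ± 0.486 (adjusted p = 7.4e-07) and *Hoxb5* at -4.67 ± 0.630 (adjusted p = 6.3e-05). *Hoxa4*, at -4.01 in culture, was here at -0.41 (95% interval -1.42 to 0.59, adjusted p = 0.59).

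In KFs against TFs, 8 of 9 members were higher in kidney, where 15.3% of all genes were higher, but this count rested on KFs replicate 3. Without it 5 of 9 were higher, where 18.3% of all genes were higher. The 5 were *Hoxa3* (3.00), *Hoxa4* (3.01), *Hoxa5* (3.13), *Hoxc4* (1.53) and *Hoxc5* (1.21), the members of the a and c clusters. *Hoxb3* went from 1.05 to 0.34 (adjusted p = 0.29), *Hoxb4* from 1.26 to 0.47 (adjusted p = 0.065), *Hoxd3* from 3.24 to 0.76 (adjusted p = 0.46) and *Hoxb5*, which did not pass in either fit, from 1.02 to -0.13. The count was also 5 without TFs replicate 2 and without TFs replicate 3.

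**Figure D3:**
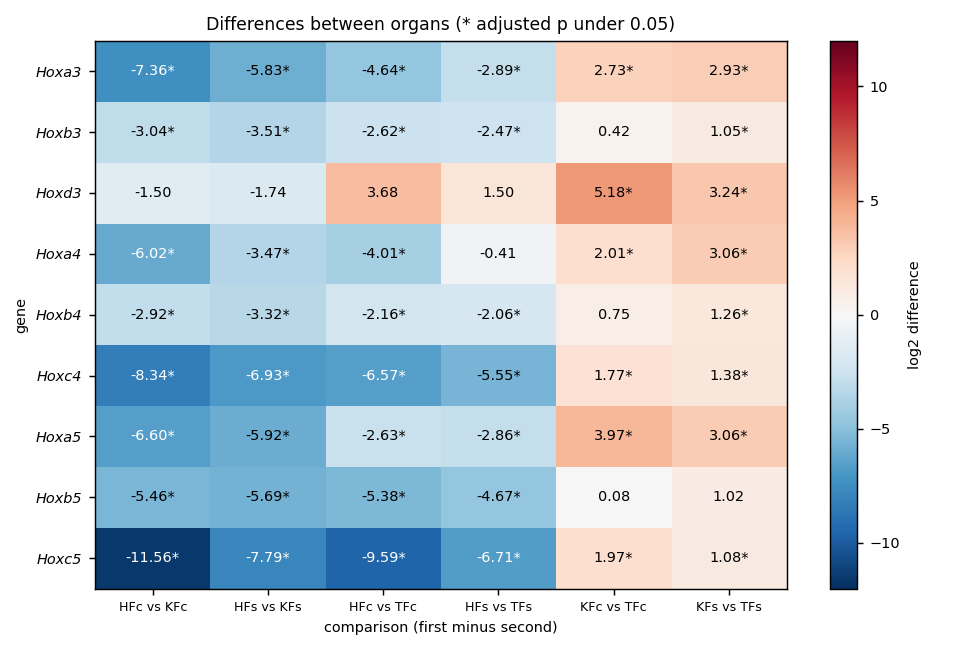
Log2 difference between organs for each gene (rows) in 6 comparisons (columns, first group minus second), cultured and transplanted side by side, with blue for lower and red for higher in the first group and a star for an adjusted p under 0.05. Heart is blue for all genes against kidney and for all but *Hoxd3* against tail, and the kidney against tail columns are near 0 for *Hoxb5* in culture (0.08). The *Hoxc5* values against HFc are fitted against 0 counts and give no fold.

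The effect of 3 days beneath the kidney capsule was compared within each organ, with calls needing an adjusted p under 0.05 and a log2 difference of more than 1 in either direction. In bulk RNA, fewer cells of a type and less RNA per cell cannot be told apart. In heart cells 2 of 9 members rose, *Hoxa4* and *Hoxa3*, where 18.3% of all genes were called higher, and none fell, where 9.33% were called lower. *Hoxa4* rose by 3.31 ± 0.648 (adjusted p = 0.00047), from 3 counts in HFc to 27 in HFs, a ratio of 10.6 (95% counting interval 3.26 to 54.6). *Hoxa3* rose by 1.99 ± 0.537 (adjusted p = 0.0052), and in a fit of these 2 groups alone its adjusted p was 0.089. It was near the floor in culture, with 0, 2 and 7 counts in HFc, of which 1 library was above 3 counts. Over the fits leaving out a library its difference ran from 1.37 to 3.62. The median member difference was 1.64, against 0.05 over all genes.

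The other members of the heart comparison did not pass. *Hoxb3* and *Hoxb4*, whose counts in HFc were larger, differed by 0.04 (95% interval -0.84 to 0.93) and 0.24 (-0.60 to 1.09). *Hoxb5*, with 18 counts over HFc and 19 over HFs, differed by 0.32 (-1.43 to 2.08). *Hoxd3* was at 1.67 ± 0.974 (adjusted p = 0.16) and passed without KFs replicate 3, at 1.68 (adjusted p = 0.041). *Hoxa5* differed by 0.94 ± 0.610 (adjusted p = 0.20) and *Hoxc4*, with 6 counts against 2, by 1.64 ± 0.912 (adjusted p = 0.14). For *Hoxc5*, both groups were at or under the floor and no fold is given.

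Markers of kidney tubules were more often detected in transplanted than in cultured cells of all 3 organs. Of 10 proximal tubule markers, 10 were above 3 counts in all 3 HFs libraries and 2 in all HFc libraries, where 6 were at 0, *Kap*, *Slc34a1*, *Slc27a2*, *Pck1* and *Slc22a6* among them. Their sum ran from 133 to 1354 CPM in HFs and from 11.0 to 12.5 CPM in HFc, and from 138 to 349 CPM in TFs against 8.08 to 9.60 CPM in TFc. In KFs it ran from 64.7 to 138 CPM and in KFc from 92.1 to 99.3 CPM, where *Lrp2* alone made 92.0 to 99.2 CPM. In KFc 7 of the 10 were at 0 and 1 was above 3 counts in all libraries, against 10 in KFs, and *Kap*, a kidney androgen-regulated protein, was at 0 in KFc and between 1.203 and 16.7 CPM in KFs. Of 6 markers of the loop, distal tubule and collecting duct, 5 were above 3 counts in all HFs libraries and 0 in all HFc libraries, with sums of 11.96 to 84.6 CPM against at most 0.109 CPM, and the sums were 13.4 to 23.3 CPM in KFs against at most 0.764 CPM in KFc. HFs replicate 2 had a tubule sum of 1354 CPM against 167 and 133 CPM in replicates 1 and 3. Its *Hoxa4* level of 0.353 CPM lay between theirs, and its *Hoxa3* level of 0.529 CPM was above their 0.481 and 0.456 CPM. *Hoxa5* was at 0.617 CPM in it, against 0.0601 and 0.190 CPM. *Hoxb3*, *Hoxd3*, *Hoxb4*, *Hoxc4* and *Hoxc5* were also highest in that library, and *Hoxb5* was lowest in it. Without it the *Hoxa5* difference in heart was -0.11, against 0.94 with all libraries. The part of these markers in the differences of the members in heart was not tested.

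In kidney cells 0 of 9 members were called in KFs against KFc, where 22.6% of all genes were called in either direction. At an unadjusted p under 0.05, 0 members passed with edgeR's quasi-likelihood test, and DESeq2 also called 0 members. The largest difference, *Hoxd3* at 1.91 ± 0.904 (adjusted p = 0.094), turned to -0.61 (95% interval -2.15 to 0.93) without KFs replicate 3. The b-cluster members turned as well, *Hoxb3* from 0.52 to -0.23, *Hoxb4* from 0.64 to -0.19 and *Hoxb5* from 0.56 to -0.63. The last had an adjusted p of 0.046 in that fit but lay within the fold limit, so that 0 of 9 members were called there too, where 23.2% of all genes were called. The a and c clusters kept their direction without that library, with *Hoxa3* at 0.46 and 0.47, *Hoxa4* at 0.75 and 0.67, *Hoxa5* at 0.26 and 0.28, *Hoxc4* at 0.23 and 0.33, and *Hoxc5* at -0.42 and -0.32, with and without it.

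**Figure D4:**
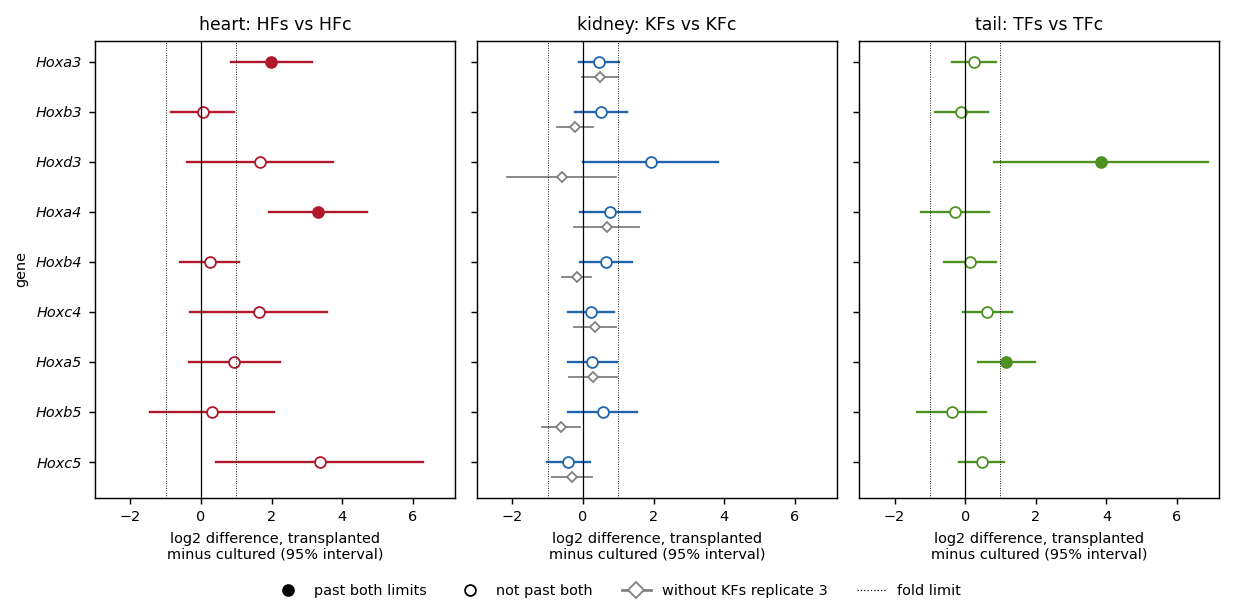
Log2 difference between transplanted and cultured cells for each gene in heart, kidney and tail, with 95% intervals from the fit of all libraries, filled points for genes past both limits and grey diamonds for kidney without KFs replicate 3. Filled points are *Hoxa3* (1.99) and *Hoxa4* (3.31) in heart and *Hoxd3* (3.85) and *Hoxa5* (1.17) in tail, and the grey diamonds of *Hoxb3*, *Hoxd3*, *Hoxb4* and *Hoxb5* lie on the other side of 0.

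In tail cells 2 of 9 members rose, *Hoxa5* and *Hoxd3*, where 11% of all genes were called higher, and none fell, where 5.53% were called lower. *Hoxa5* rose by 1.17 ± 0.385 (adjusted p = 0.025), from a mean of 0.997 ± 0.544 CPM in TFc to 2.21 ± 0.410 CPM in TFs (SD, n = 3). *Hoxd3* rose from 2 counts to 27, a ratio of 17.2 (95% counting interval 4.33 to 149, adjusted p = 0.044). Each call was lost in 4 of the 7 fits that left out a library, with adjusted p up to 0.11 for *Hoxa5* and 0.14 for *Hoxd3*. Leaving out TFs replicate 3 or TFc replicate 1 ended both calls, TFs replicate 2 and TFc replicate 2 that of *Hoxa5*, and TFs replicate 1 and TFc replicate 3 that of *Hoxd3*. The median member difference was 0.25, against 0 over all genes, and *Hoxb5*, *Hoxa4* and *Hoxb3* were at -0.38, -0.29 and -0.11 without passing. The tubule marker sums given above rose in the same tail libraries, and their part in these differences was not tested.

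Responses were compared between organs with interaction contrasts. The *Hoxa4* response of heart cells exceeded that of tail cells by 3.60 ± 0.796 (adjusted p = 0.0047) and that of kidney cells by 2.55 ± 0.767 (adjusted p = 0.023). It was the 1 member of 9 called in each of these contrasts, where 10.1% and 10.7% of all genes were higher. The second call was lost without HFc replicate 1, with a difference of 1.99 and an adjusted p of 0.064. For *Hoxa3*, heart exceeded tail by 1.74 ± 0.614 (adjusted p = 0.053) with all libraries and by 1.79 (adjusted p = 0.032) without KFs replicate 3. Kidney against tail gave 0 of 9 members with edgeR, where 11.1% of all genes were called, with 1 member at an unadjusted p under 0.05 and 1 called by DESeq2, both *Hoxc5*. Without KFs replicate 3 it gave 1, *Hoxd3*, where 11.7% of all genes were lower, with a kidney minus tail response of -4.44 (adjusted p = 0.018). The *Hoxd3* rise in tail and the *Hoxa4* rise in heart both started from 3 counts or fewer over the cultured group.

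The other *Hox* genes give the setting of these changes. In heart cells, where 18.3% of all genes were called higher and 9.33% lower, 8 of 8 tested genes of groups 6 to 8 rose. None of them fell, and 4 of 10 of groups 9 to 11 rose. The 3 with the largest fitted differences in groups 6 to 8 and the first of groups 9 to 11 stayed low, with *Hoxc8* going from 0 counts to 0.236 CPM (adjusted p = 0.021), *Hoxa6* going from 0.0121 to 0.263 CPM (adjusted p = 0.00033), *Hoxb8* from 0.0285 to 0.411 CPM (adjusted p = 0.0045) and *Hoxa9* from 0 counts to 0.728 CPM (adjusted p = 0.00013), against 75.8, 11.5, 13.7 and 15.7 CPM in KFc. *Hoxd8*, in contrast, reached a mean of 5.71 CPM in HFs from 1.68 CPM in HFc, above the 1.96 CPM of KFc, and *Hoxa7* reached 1.88 CPM, a pair named after their values were seen. In kidney 0 of 8 and in tail 1 of 8 genes of groups 6 to 8 rose, the latter being *Hoxd8* (2.84, adjusted p = 0.0028), and in groups 9 to 11 *Hoxd11* and *Hoxd9* rose in tail. Of all genes, 14.7% were called higher in kidney and 11% in tail. At the posterior end of the clusters, *Hoxc13* fell in all 3 organs, with differences of -4.33, -3.44 and -2.22 in heart, kidney and tail. None of the 9 anterior members fell in any organ. Of all genes, 9.33% were called lower in heart, 7.99% in kidney and 5.53% in tail.

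**Figure D5:**
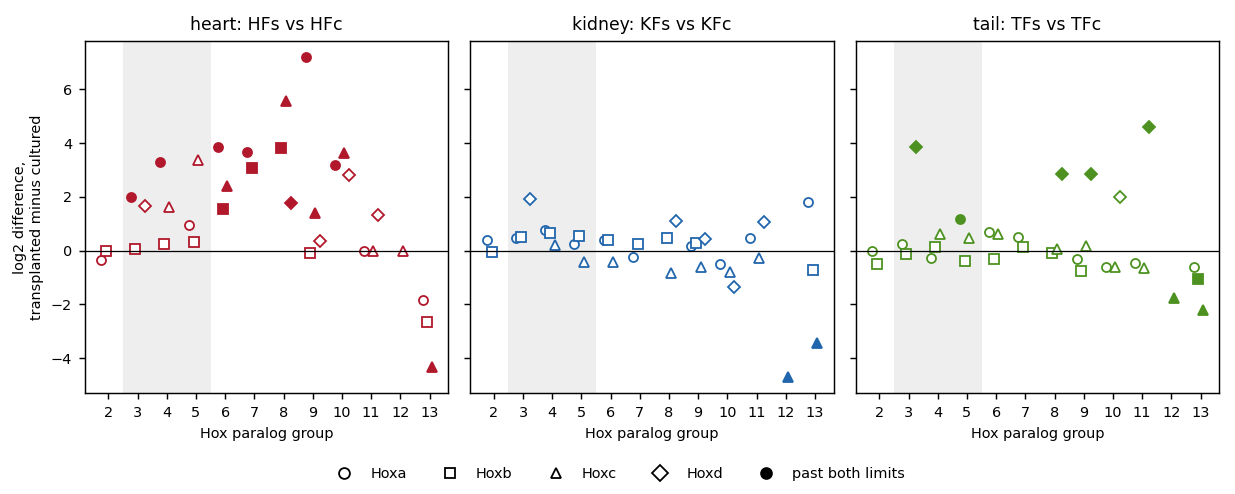
Log2 difference between transplanted and cultured cells for the *Hox* genes tested in paralog groups 2 to 13, by group and cluster (marker shape), with filled markers for genes past both limits and grey shading over groups 3 to 5. In heart, filled markers above 0 run from *Hoxa3* (1.99) through groups 6 to 8 to group 10, and *Hoxc13* lies below 0 in each organ. Values of genes with 0 counts in a group are fitted and give no fold.

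Patterns over the 6 groups were compared as the root mean square difference of centred log2 CPM, over 6 group means that share libraries and depth. Neighbours in a cluster were often nearest among the 16301 tested genes with a symbol. *Hoxa3* lay nearest to *Hoxa6* (0.14), *Hoxa7* (0.50) and *Hoxb8* (0.53), and *Hoxa5* to *Hoxa2* (0.58), *Hoxa3* (0.62) and *Hoxa6* (0.62). *Hoxb3* and *Hoxb4* lay nearest to each other (0.20), followed by *Jakmip2* (0.29) and *Fam189a1* (0.30) for *Hoxb3* and by *Wnt10a* (0.21) and *Fam189a1* (0.24) for *Hoxb4*. *Hoxb5* was followed by *Hoxb6* (0.40), *Gm53* (0.51) and *Slc5a7* (0.59). *Hoxc4* and *Hoxc5* lay nearest to each other (0.36), followed by *Hoxb8* (0.45) and *Hoxb7* (0.58) for *Hoxc4* and by *Hoxc6* (0.51) and *Hoxb8* (0.66) for *Hoxc5*. The nearest genes to *Hoxa4* were *Sall1* (0.36), *Il20ra* (0.53) and *Atg9b* (0.53), and those to *Hoxd3* were *Nup210* (0.32), *Itga2* (0.32) and *Lrrn2* (0.40), all outside the clusters. Without KFs replicate 3 the first neighbour changed for these 2 genes, to *Il20ra* (0.44) and *Rufy4* (0.25), and for no other member.

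Hox proteins bind DNA together with TALE cofactors, of which 9 of 9 listed genes were tested. In heart cells 2 rose on transplantation, where 18.3% of all genes were called higher, and none fell, *Meis1* by 1.41 (adjusted p = 4.4e-05) and *Meis2* by 1.04 (adjusted p = 1.1e-05), while *Pknox2* rose in kidney (1.64, adjusted p = 1.1e-05) and tail (1.81, adjusted p = 9.4e-06). Between cultured organs, *Meis1* and *Meis2* were higher in KFc than in TFc by 1.43 and 1.81, and lower in HFc than in KFc, with differences of -0.86 and -0.85 (adjusted p = 0.0057 and 0.00020).

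Retinoic acid, made by the *Aldh1a* enzymes and broken down by the *Cyp26* enzymes, is a known inducer of anterior *Hox* genes. Of 16 tested genes of its pathway, 6 rose and 3 fell in heart, 6 rose and 3 fell in kidney, and 5 rose and 3 fell in tail. Over all genes 18.3% were called higher and 9.33% lower in heart, 14.7% and 7.99% in kidney, and 11% and 5.53% in tail. The binding protein gene *Crabp2* rose in each, by 2.95, 3.22 and 3.90. In tail the synthesis enzyme *Aldh1a2* rose from 1.57 to 51.8 CPM (adjusted p = 4.5e-06) and the receptor gene *Rarb* from 0.233 to 2.50 CPM (adjusted p = 6.3e-06). In kidney the breakdown enzyme *Cyp26b1* fell from 117 to 4.91 CPM (adjusted p = 2.5e-08). Whether these changes bear on the anterior members was not tested. Of 16 Polycomb and trithorax genes, which keep *Hox* genes off or on, 2 rose in heart (*Cbx7* and *Pcgf2*), 1 in kidney (*Kdm6a*) and none in tail, below the shares of all genes called higher just given, and none fell in these comparisons. Of 3 tested embryonic regulators of *Hox* genes, 2 rose in heart, 1 in kidney and none in tail, and none fell. Of all genes, 18.3%, 14.7% and 11% were called higher there. *Egr2* rose in heart and kidney. The median difference of the 3 genes was 2.57 in heart, -0.63 in kidney and 0.18 in tail.

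Of 14 non-coding genes among or across the members, 6 were tested. *Hoxb3os* rose in transplanted heart cells, from 0.209 ± 0.0996 to 1.13 ± 0.0717 CPM (SD, n = 3, adjusted p = 0.00030), while *Hoxb3* on the opposite strand was at 0.04. *Hoxd3os1*, opposite *Hoxd3*, rose there from 0.0918 to 0.566 CPM (adjusted p = 0.023). *Hoxb5os* was highest in tail, at 1.95 ± 0.218 CPM in TFc against 0.208 ± 0.0820 CPM in KFc (adjusted p = 0.00052), although *Hoxb5* itself overlapped between these groups. *Hoxaas3* was at 0 counts in all 6 heart libraries and between 8 and 15 counts in the kidney libraries.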

How the data were processed

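Bulk RNA was measured in 18 libraries, 3 in each of 6 groups. The deposited expected counts per Ensembl gene were made by the authors with RSEM on Bowtie alignments of 75-base single-end reads from a stranded total RNA kit, and they held whole numbers. The submitters' processing notes name mm9 and the methods name GRCm38; the annotation release is not given in the sources used here. No coordinates came from the count table. Symbols, positions and sequences came from GENCODE M21 (GRCm38), in which 37607 of 38924 identifiers had a symbol and 1317 did not.

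Groups were taken from the labels. Counts of all 18 libraries were fitted together with edgeR 4.0.16 in R 4.3.3 (default expression filter, TMM scaling, quasi-likelihood test, Benjamini-Hochberg adjustment over 16577 genes). Transplanted against cultured cells were called at an adjusted p under 0.05 with a log2 difference of more than 1 in either direction. Organs and responses were compared at the same adjusted p with no limit on size. Ratios of genes with 1 to 3 counts in a group have exact 95% counting intervals, and genes at 0 in a group were compared with a floor of 3 counts over the group, both covering counting error only. On simulated counts for KFs against KFc, the fit recovered 164 of the 200 genes given a change and made 3 false calls among 16221 genes. The changed genes were drawn only from those above a minimum mean count, and no outlying library was simulated. This recovery therefore does not extend to genes near the floor or to a group with an outlying library such as KFs replicate 3.

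The members, the comparison lists and the tests were chosen with earlier results of these data known. All listed members were named, with the 3 genes nearest in pattern to each, and up to 3 called genes of each list by size of change. Alternatives were DESeq2 1.42.0, DESeq2 size factors, library size alone, no filter, a mean of at least 10 counts, a replicate block, the 2 compared groups alone and each library left out. Figures were drawn with matplotlib 3.10.9. Some genes and sequences are not reported here.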

Additional observations from a re-analysis of the deposited data

Results flagged for a closer look

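*Hoxa4* responded differently to transplantation in heart cells than in the other organs, by a test of the difference itself in the edgeR quasi-likelihood fit. Its response in heart exceeded that in tail by 3.60 on the log2 scale (SE 0.796, adjusted p = 0.0047), and over 19 alternatives this difference ran from 3.03 to 4.33 with adjusted p between 0.0024 and 0.013. Its response in heart exceeded that in kidney by 2.55 (SE 0.767, adjusted p = 0.023), and over 18 alternatives it ran from 1.99 to 3.29, with the call lost without HFc replicate 1 (adjusted p = 0.064). *Hoxa4* was the 1 member of 9 called in each contrast, where 10.1% and 10.7% of all genes were higher. The difference was not particular to *Hoxa4*, as 4 and 6 of 8 tested genes of groups 6 to 8 were called higher there. All 3 HFs libraries lay above all 3 HFc libraries for *Hoxa4*, but the cultured heart libraries held 0, 2 and 1 counts of it. Tubule markers were higher in the same HFs libraries, and their part in the difference was not tested.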

How the results depend on the processing

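Counts of 3 or fewer in HFc (*Hoxa4*, *Hoxc4*, *Hoxc5*) and TFc (*Hoxd3*) limit those fold changes to wide intervals, and *Hoxd3* counts may include overlapping genes. With only the 2 groups compared, called members were 1 in heart on transplantation (2 with all libraries), 1 in tail (2) and 5 for KFs against TFs (8), but 8 for KFc against TFc (6, with *Hoxb3* and *Hoxb4* added) and 9 for HFc against KFc (8, with *Hoxd3* added at -1.56, adjusted p = 0.014). The 1 in heart was *Hoxd3* (1.73, adjusted p = 0.024), as *Hoxa3* did not pass, and *Hoxa4* in heart and *Hoxd3* in tail gave no value in these fits. DESeq2 called 2 members for heart minus tail response, 2 for heart minus kidney and 1 for kidney minus tail, against 1, 1 and 0. DESeq2 size factors and a mean of at least 10 counts each gave 2 for heart minus tail. The cause of these changes was not tested.

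Leaving out each library gave 2 to 3 called members for HFs against HFc, 0 to 1 for KFs against KFc (*Hoxd3*, 2.38 without KFs replicate 1 or 2), 0 to 2 for TFs against TFc, 5 to 9 for KFs against TFs, 1 to 2 for heart minus tail, 0 to 1 for kidney minus tail and 0 to 2 for heart minus kidney. Omission of KFs replicate 3 from comparisons without kidney cells was chosen after seeing the data.

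Signs turned for uncalled differences. Over the fits leaving out a library, HFs against HFc ran from -0.11 to 1.38 for *Hoxa5*, -0.012 to 0.82 for *Hoxb5* and -0.22 to 0.43 for *Hoxb3*, which was also -0.014 with library size alone. KFs against KFc ran from -0.19 to 0.90 for *Hoxb4*, -0.63 to 0.88 for *Hoxb5*, -0.23 to 0.79 for *Hoxb3* and -0.61 to 2.38 for *Hoxd3*. *Hoxa4* ran from -0.63 to 0.0069 in TFs against TFc, *Hoxb5* from -0.035 to 0.21 in KFc against TFc and from -0.13 to 1.39 in KFs against TFs, and *Hoxd3* from -2.24 to 0.75 in HFs against KFs. Heart minus tail ran from -0.47 to 3.56 for *Hoxc5*, fitted values that rest on at most 3 counts a heart library and give no fold, -1.28 to 0.22 for *Hoxa5*, -0.11 to 0.30 for *Hoxb4* and -0.11 to 0.54 for *Hoxb3*. Kidney minus tail ran from -0.31 to 0.78 for *Hoxb4*, -0.24 to 1.28 for *Hoxb5* and -0.10 to 0.90 for *Hoxb3*. Heart minus kidney ran from -0.35 to 1.14 for *Hoxa5*, -0.65 to 0.44 for *Hoxb4*, -0.56 to 0.97 for *Hoxb5*, -0.75 to 0.29 for *Hoxb3* and -0.71 to 2.30 for *Hoxd3*.

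Deviations of same-numbered libraries from their group means had correlations from -0.14 to 0.079. Libraries with different numbers were not compared, so these values cannot show whether the replicate numbers pair the samples. A replicate block gave 2, 0 and 2 called members for transplantation in heart, kidney and tail, 8 for HFc against KFc, 9 for HFc against TFc, 6 for KFc against TFc, 8 for HFs against KFs, 7 for HFs against TFs, 6 for KFs against TFs, and 1, 0 and 1 for heart minus tail, kidney minus tail and heart minus kidney. With the block *Hoxd3* turned to 0.49 in heart minus kidney.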
